A study of Homo sapiens with 24 samples.

Results

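The genes described here are the 8 that set, copy and remove the methyl mark of DNA in human cells: the methyltransferases DNMT1, DNMT3A and DNMT3B, the catalytically inactive partner DNMT3L, the maintenance cofactor UHRF1, and the oxidases TET1, TET2 and TET3. They were taken by symbol and not by a threshold on their levels, though with earlier results of these data known. Each symbol matched 1 gene of the 61551 used from a table of raw RNA-seq read counts. The study asked what the human accelerated region HAR123, a noncoding element that lies within the gene SMG6, does in human neural development. All 24 libraries came from H9 (WA09), an established human embryonic stem cell line, and 4 genotypes were sequenced at 2 stages with 3 libraries in each of the 8 groups. hHAR123 denotes the cells with the unedited human element, HAR123-KO the cells in which CRISPR-Cas9 had removed the element from both alleles, and cHAR123 and mHAR123 the cells in which the chimpanzee or the mouse ortholog replaced it. ESC denotes undifferentiated human embryonic stem cells (hESCs) without treatment. ECTO denotes neuroectoderm, made from the same cells over 5 days with Noggin, an inhibitor of bone morphogenetic proteins, and SB431542, an inhibitor of activin and TGF-beta receptors, in a medium with knockout serum replacement. Each genotype was represented by a pair of independent clones, and which clone gave which library is not stated, so some libraries of a group share a clone and every p-value measures the spread between libraries only.

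Methyl groups on cytosine are placed mostly at CpG dinucleotides. DNMT3A and DNMT3B methylate unmarked DNA and DNMT3L stimulates them, whereas DNMT1, guided by UHRF1 to the hemimethylated sites left by replication, copies the pattern to the new strand. The TET enzymes oxidise 5-methylcytosine, which leads to its loss by dilution or by base excision repair, and pluripotent stem cells are known for high DNMT3B and TET1.

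The libraries held from 21022748 to 35198684 counts assigned to genes, and the stage markers moved with the labels: the 8 pluripotency genes summed to 4982 to 5370 counts per 1000000 counts (CPM) in ESC and 1541 to 1766 CPM in ECTO, and the 8 neuroectoderm genes to 69.4 to 79.3 CPM in ESC and at least 1644 CPM in every ECTO library of hHAR123, cHAR123 and mHAR123. The HAR123-KO ECTO libraries stood apart, with 806 to 827 CPM of neuroectoderm markers and 1733 to 1754 CPM of the 8 neural crest markers, against 205 to 214 CPM in hHAR123 ECTO. The pluripotency sum in ECTO was mostly LIN28A, with a mean of 1555 CPM in hHAR123 and 1341 CPM in HAR123-KO. Between stages in hHAR123, POU5F1 fell from 1139 to 15.4 CPM and NANOG from 157 to 1.26 CPM. The 8 surface ectoderm markers summed to 653 to 694 CPM in ESC, 194 to 202 CPM in hHAR123 ECTO and 258 to 268 CPM in HAR123-KO ECTO, carried by KRT8 and KRT18, with KRT5, KRT14 and TP63 near 0 and TFAP2C at 4.35 CPM in hHAR123 ECTO and 87.4 CPM in HAR123-KO ECTO. The 6 mesoderm markers summed to at most 4.21 CPM in any library. The 6 endoderm markers summed to at most 7.79 CPM in ESC and to 47.6 to 55.3 CPM in ECTO, nearly all of it CXCR4, with SOX17 and GATA4 near 0. Because the element is noncoding, no gene count checks its deletion. In ECTO, the mean levels that the study lists under cHAR123 and mHAR123 correspond to the deposited columns carrying the other name, while in ESC they correspond to the same name, so both names may be crossed in ECTO. Those libraries are given here by their labels, and the values with the names exchanged are given beside the results that rest on them.

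In the authors' annotation (GRCh38), DNMT1 (ENSG00000130816) spans chr19:10133342-10231286 on the minus strand and UHRF1 (ENSG00000276043) chr19:4903080-4962154 on the plus strand. DNMT3A (ENSG00000119772) spans chr2:25227855-25342590 on the minus strand, DNMT3B (ENSG00000088305) chr20:32762385-32809359 on the plus strand, and DNMT3L (ENSG00000142182) chr21:44246339-44262216 on the minus strand. TET1 (ENSG00000138336) lies at chr10:68560337-68694487, TET2 (ENSG00000168769) at chr4:105145875-105279816 and TET3 (ENSG00000187605) at chr2:73984910-74108176, all on the plus strand. The values are counts over all exons of a gene, so isoforms, such as the catalytically inactive forms of DNMT3B, were not separated. DNMT1 shares 83 exon bases (0.54% of its exons) with S1PR2 on the same strand. DNMT3L shares 241 exon bases with the antisense gene DNMT3L-AS1.

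The promoters of DNMT1 and UHRF1 are shown because these 2 genes were the members that differed most between the genotypes in ECTO. RefSeq transcript starts on GRCh38.p14 gave 18 windows for 7 of the 8 members, each from 250 bases before to 50 bases after a start, and the 18 were searched on both strands for 4 octamers of the type bound by E2F factors, which drive genes of DNA replication: TTTCGCGC, TTTGGCGC, TTTCCCGC and TTTGCCGC. Of all 35116 windows of 27305 genes, 3.31% held at least 1 of these octamers. Of the 18 member windows 3 did, 1 of DNMT1 and 2 of UHRF1, and no octamer was found in the windows of DNMT3A, DNMT3B, TET1, TET2 or TET3. Each octamer contains a CpG, and the windows behind the 3.31% were not matched for CpG content, so the shares are not comparable. For DNMT3B the window, chr20:32779602-32779901, lies within the gene, as do the window of DNMT1 and those of UHRF1. The 5′ ends of these genes in the authors' annotation were not searched: 32762385 for DNMT3B, 10231286 for DNMT1 and 4903080 for UHRF1. The sequences below run 5′ to 3′ on the gene's strand from 250 bases before to 10 bases after the start, with the octamer, or its reverse complement where it lies on the opposite strand, in capitals.
DNMT1 (chr19:10194944-10195203, minus strand, TTTCGCGC on the opposite strand): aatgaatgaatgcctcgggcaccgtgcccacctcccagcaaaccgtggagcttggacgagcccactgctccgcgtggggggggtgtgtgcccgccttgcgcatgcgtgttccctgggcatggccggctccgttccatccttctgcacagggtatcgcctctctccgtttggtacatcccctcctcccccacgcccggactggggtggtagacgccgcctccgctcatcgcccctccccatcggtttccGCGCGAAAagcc
UHRF1, the first of 3 starts (chr19:4909251-4909510, plus strand, TTTCCCGC on the opposite strand): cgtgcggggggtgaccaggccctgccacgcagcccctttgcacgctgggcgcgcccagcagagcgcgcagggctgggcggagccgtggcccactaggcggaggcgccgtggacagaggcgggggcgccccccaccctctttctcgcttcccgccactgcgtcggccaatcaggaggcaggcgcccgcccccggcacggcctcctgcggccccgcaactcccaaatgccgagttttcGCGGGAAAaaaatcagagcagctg
UHRF1, the second of 3 starts (chr19:4909894-4910153, plus strand, TTTCGCGC on the gene's strand): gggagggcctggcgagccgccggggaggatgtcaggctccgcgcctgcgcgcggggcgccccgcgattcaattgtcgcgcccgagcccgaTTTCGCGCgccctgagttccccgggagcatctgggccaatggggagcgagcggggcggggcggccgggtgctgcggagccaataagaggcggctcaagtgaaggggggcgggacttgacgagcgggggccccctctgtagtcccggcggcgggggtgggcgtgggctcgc
In DNMT1 the octamer covers bases −2 to 6 around the start. In UHRF1 it covers bases −14 to −7 before the first start and −160 to −153 before the second, and the window of the third start, the furthest downstream, holds none. The windows of both genes are rich in CpG, with 30 CpGs in that of DNMT1 and 36 to 46 in the 3 of UHRF1, against a median of 14 and an upper quartile of 28 over all windows. This is not particular to them: windows of DNMT3A hold 18 to 46, those of TET3 45 and 33 and those of TET2 13 and 35. The letters alone do not show that a factor binds there.

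To set the genes side by side, the CPM values were divided by exon length in kilobases (RPKM). This length covers all annotated exons of a gene, 15379 bases for DNMT1 and 5145 for UHRF1, and can exceed that of the transcripts present. The order and shares of genes by RPKM rest on it: in CPM, DNMT1 (320) was above UHRF1 (151) in hHAR123 ESC. In hHAR123 ESC, DNMT3B stood far above the rest at 365 ± 1.64 RPKM (SD, n = 3 here and for every mean below). UHRF1 followed at 29.3 ± 0.485 RPKM and TET1 at 26.2 ± 0.638 RPKM. DNMT1, at 20.8 ± 0.193 RPKM, and DNMT3A, at 20.5 ± 0.410 RPKM, did not differ beyond their spread, and TET3 was lower at 7.66 ± 0.139 RPKM. TET2 was the lowest of the members with a measurable level, at 0.620 ± 0.007 RPKM.

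In hHAR123 ECTO the order was different. TET1 led with 35.6 ± 1.06 RPKM, and DNMT3B came next with 30.5 ± 0.301 RPKM. UHRF1 stood at 15.4 ± 0.446 RPKM, while DNMT3A, at 12.5 ± 0.171 RPKM, and DNMT1, at 12.2 ± 0.522 RPKM, again lay within their spread of each other. TET3, at 6.79 ± 0.082 RPKM, was above TET2, at 5.34 ± 0.138 RPKM, so the gap between those 2 oxidases had nearly closed.

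Over the 12 libraries of each stage, whatever the genotype, DNMT3B made up 89.7 to 91.0% of the summed RPKM of the 3 active methyltransferases in ESC and 50.3 to 56.0% in ECTO. DNMT1 went from 4.73 to 5.41% of that sum in ESC to 21.2 to 27.5% in ECTO, and DNMT3A from 4.19 to 5.12% to 22.2 to 24.1%. The sum itself fell from 387 to 427 RPKM in ESC to 54.5 to 61.9 RPKM in ECTO. Within the TET family TET1 kept the main share, 75.3 to 77.7% in ESC and 71.8 to 75.5% in ECTO, while TET2 went from 1.45 to 1.91% to 10.7 to 12.5% and TET3 from 20.8 to 22.9% to 13.8 to 16.2%. The summed RPKM of the TET genes was 33.3 to 36.4 in ESC and 44.1 to 48.6 in ECTO, so the methyltransferase sum was more than an order of magnitude above the TET sum in ESC and close to it in ECTO. These shares rest on the exon lengths, describe RNA and say nothing of protein or enzyme activity.

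**Figure D1:**
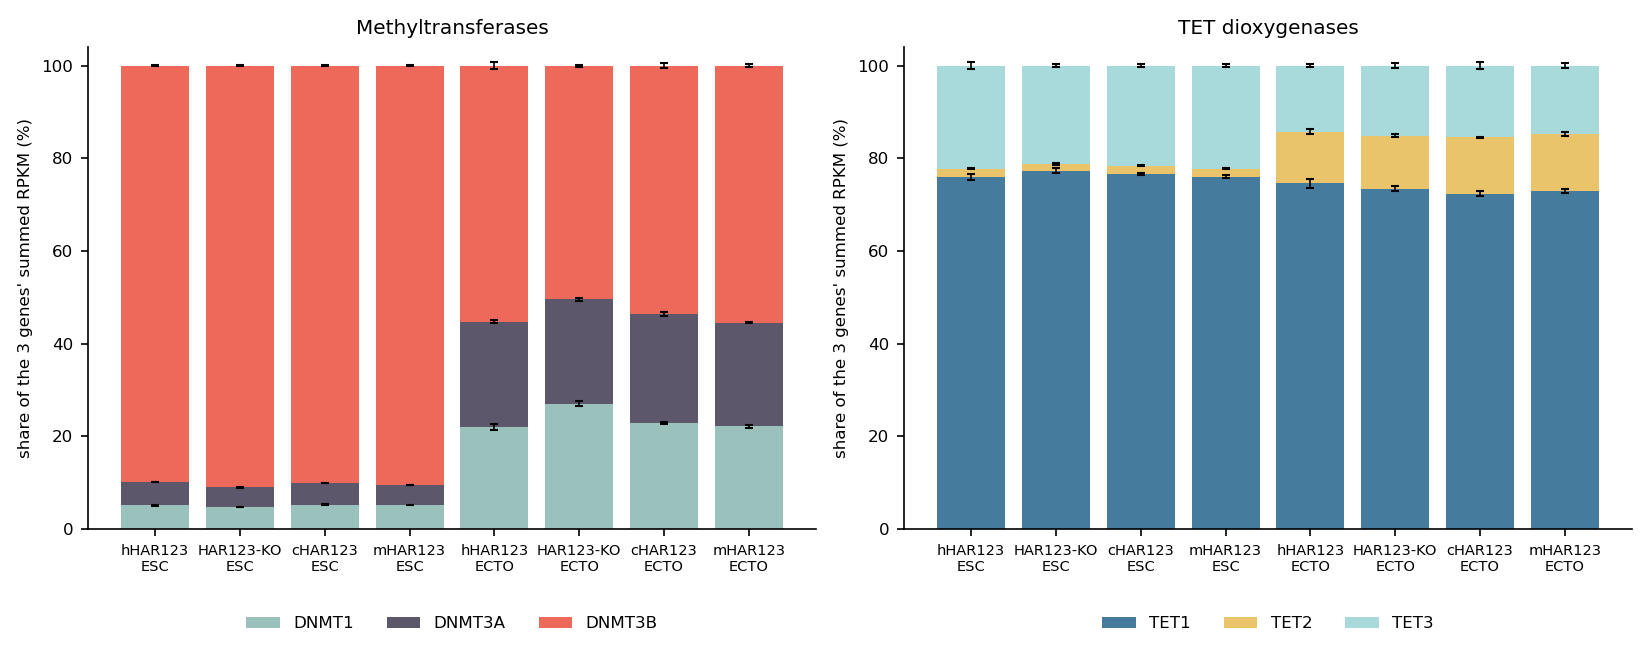
Share of each gene (percent of summed RPKM, mean with SD bars, n = 3 libraries per group) among DNMT1, DNMT3A and DNMT3B and among TET1, TET2 and TET3, by genotype and stage. DNMT3B holds about 90% of the methyltransferase sum in every ESC group and 50.4 to 55.5% (group means) in ECTO, where the DNMT1 share is highest in HAR123-KO.

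DNMT3L, best known from de novo methylation in germ cells, was barely detected. Its counts in the 3 libraries were 1, 1 and 3 in hHAR123 ESC, 0, 0 and 2 in HAR123-KO ESC, 1, 2 and 1 in cHAR123 ESC, and 0, 2 and 6 in mHAR123 ESC. In ECTO they were 0, 0 and 2 in hHAR123, 0, 0 and 2 in cHAR123, and 0 in every library of HAR123-KO and mHAR123. It was at 0 in 13 of the 24 libraries and at 3 counts or fewer in 23, where 3 counts, the limit that a count of 0 allows, correspond to 0.0852 to 0.143 CPM. A difference between groups was not detectable at this depth, and DNMT3L did not pass the filter on low counts, so that 7 of the 8 members were tested.

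**Figure D2:**
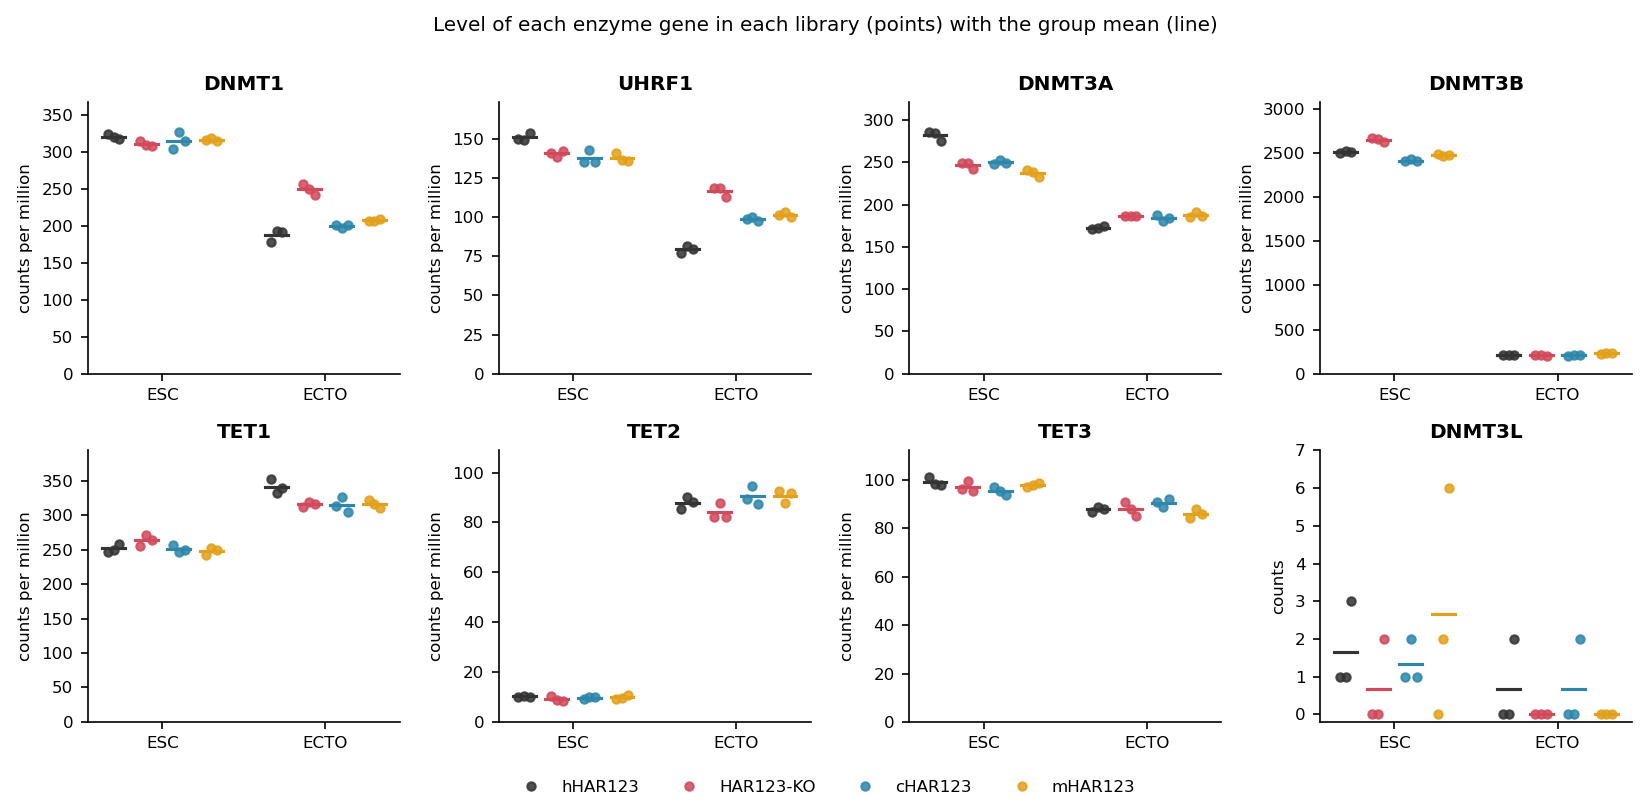
Level of each member in each of the 24 libraries (points, CPM by library total, with DNMT3L in counts) with the group mean as a line, for the 4 genotypes in ESC and ECTO. The drop of DNMT3B and the rise of TET2 between stages are present in every genotype, and in ECTO the HAR123-KO libraries lie above all others for DNMT1 and UHRF1.

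The first comparison asked how the 7 measurable genes changed as hESCs became neuroectoderm. In hHAR123 cells DNMT3B fell by more than an order of magnitude, TET2 rose several-fold, DNMT1, UHRF1 and DNMT3A fell, and TET1 and TET3 changed little. All 7 passed an adjusted p under 0.01 (the quasi-likelihood F test of edgeR, adjusted over all genes tested by the method of Benjamini and Hochberg, here called the edgeR adjusted p), 2 higher and 5 lower, beside 80.1% of all genes tested in that comparison, so passing the p threshold sets no gene apart here. With the added requirement of a log2 fold change over 1 in size, the rule of the study, 4 of the 7 (DNMT1, DNMT3B, TET2 and UHRF1) passed beside 45.9% of all genes. In HAR123-KO 6 of 7 passed (79.2% of all genes) and 2 with the size rule (41.1%), in cHAR123 7 (78.9%) and 2 (42.7%), and in mHAR123 7 (78.6%) and 2 (41.9%). In HAR123-KO, cHAR123 and mHAR123 the 2 that passed the size rule were DNMT3B and TET2. Fold changes use TMM scaling, which sets ECTO lower against ESC than library totals do (the median of all genes differs by 0.29, 0.20, 0.21 and 0.17 on the log2 scale in hHAR123, HAR123-KO, cHAR123 and mHAR123), so they lie below the ratios of the CPM values printed here.

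DNMT3B, the de novo enzyme most abundant in the pluripotent embryo, showed the largest change of the members in either direction. In ESC its level was 2500, 2522 and 2510 CPM in the 3 hHAR123 libraries, 2669, 2656 and 2623 CPM in HAR123-KO, 2402, 2424 and 2402 CPM in cHAR123, and 2489, 2463 and 2469 CPM in mHAR123. In ECTO it was 210.01, 212 and 208 CPM in hHAR123, 209.8, 207 and 206 CPM in HAR123-KO, 206, 209 and 209 CPM in cHAR123, and 227, 238 and 232 CPM in mHAR123. Every ECTO library thus lay far below every ESC library, with 4415 to 5892 counts left in ECTO. The log2 fold change was −3.87 (SE 0.03, edgeR adjusted p = 7.11e-49) in hHAR123, a 14.6-fold fall, and −3.87 (edgeR adjusted p = 3.51e-74) in HAR123-KO, a 14.7-fold fall. It was −3.74 in cHAR123 (13.4-fold) and −3.58 in mHAR123, or −3.55 and −3.78 with the ECTO names exchanged, under which all 7 members kept their direction and call in both genotypes. In bulk RNA, a fall of this kind cannot be told apart into fewer cells with the transcript and less transcript per cell.

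DNMT3A, the other de novo enzyme, fell by much less. In hHAR123 it went from 286, 285 and 276 CPM in ESC to 171, 173 and 175 CPM in ECTO, and in HAR123-KO from 249, 250 and 242 CPM to 186 CPM in all 3 libraries. In cHAR123 it went from 248, 252 and 249 CPM to 188, 180.1 and 184 CPM, and in mHAR123 from 241, 239 and 233 CPM to 185, 191 and 186 CPM. The stages did not overlap in any genotype. The log2 fold change was −0.999 (SE 0.03, edgeR adjusted p = 3.46e-27) in hHAR123, just short of the size threshold, against −0.61 for HAR123-KO, −0.65 for cHAR123 and −0.51 for mHAR123. The ratio of DNMT3B to DNMT3A in RPKM went from 17.5 to 21.7 over the ESC libraries to 2.20 to 2.49 over the ECTO libraries.

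DNMT1, the maintenance methyltransferase, stood at 324, 320 and 318 CPM in hHAR123 ESC and at 178, 193 and 191 CPM in hHAR123 ECTO. In HAR123-KO it was 314, 309 and 308 CPM in ESC and 257, 250 and 241 CPM in ECTO. The cHAR123 libraries had 303, 326 and 314 CPM in ESC and 200, 196 and 201 CPM in ECTO, and the mHAR123 libraries 316, 318 and 315 CPM and 206, 207 and 209 CPM. ECTO was below ESC in every genotype without overlap, and least so in HAR123-KO. On the log2 scale the change was −1.07 (SE 0.03, edgeR adjusted p = 1.63e-27) in hHAR123, −0.52 in HAR123-KO, −0.87 in cHAR123 and −0.78 in mHAR123. By library totals it was −0.77 in hHAR123 and −0.32 in HAR123-KO.

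UHRF1, the cofactor that leads DNMT1 to hemimethylated sites, fell in every genotype, as DNMT1 did. Its level was 149, 149 and 154 CPM in hHAR123 ESC and 77.2, 81.7 and 79.3 CPM in hHAR123 ECTO, and 141, 138 and 142 CPM in HAR123-KO ESC and 118, 118 and 112 CPM in HAR123-KO ECTO. In cHAR123 it went from 135, 143 and 135 CPM to 99.0, 100.2 and 97.7 CPM, and in mHAR123 from 141, 137 and 136 CPM to 101, 103 and 99.8 CPM. All ECTO libraries were below all ESC libraries of their genotype. The log2 fold change was −1.22 (SE 0.04, edgeR adjusted p = 3.63e-28) in hHAR123, a 2.32-fold fall, against −0.47 in HAR123-KO, −0.68 in cHAR123 and −0.61 in mHAR123. By library totals the fall was −0.92 in hHAR123 and −0.27 in HAR123-KO. The ratio of UHRF1 to DNMT1 in RPKM lay between 1.28 and 1.45 in ESC and between 1.24 and 1.53 in ECTO. Its mean fell from 1.41 to 1.27 in hHAR123 and rose from 1.31 to 1.49 in cHAR123 and from 1.30 to 1.46 in mHAR123. In HAR123-KO it was 1.35 in ESC and 1.39 in ECTO, where the stages overlapped.

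TET2 rose in every genotype, by far more than TET1. It had 10.2, 10.4 and 10.1 CPM in hHAR123 ESC and 85.6, 90.1 and 88.2 CPM in hHAR123 ECTO, resting on 242 to 357 counts per ESC library and 1799 to 2407 counts per ECTO library over the series. The ESC levels were 10.4, 8.81 and 8.42 CPM in HAR123-KO, 9.17, 9.85 and 9.95 CPM in cHAR123 and 9.34, 9.69 and 10.8 CPM in mHAR123. In ECTO they were 82.1, 87.9 and 82.1 CPM in HAR123-KO, 89.5, 94.7 and 87.6 CPM in cHAR123 and 92.7, 87.9 and 91.8 CPM in mHAR123. Every edited range overlapped with that of hHAR123 at the same stage, except that the cHAR123 ESC libraries lay just below it, and the stages were far apart. The log2 fold change was 2.81 (SE 0.05, edgeR adjusted p = 5.87e-35, 7.03-fold) in hHAR123, 3.01 (8.03-fold) in HAR123-KO, 3.02 (8.12-fold) in cHAR123 and 3.03 (8.15-fold) in mHAR123. The ratio of TET1 to TET2 in RPKM went from 39.7 to 53.8 in ESC to 5.79 to 7.07 in ECTO.

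TET1, the main oxidase of hESCs by RNA level, stayed high. It stood at 247, 250.4 and 259 CPM in hHAR123 ESC and 353, 333 and 339 CPM in hHAR123 ECTO, with 242 to 271 CPM over the other ESC libraries and 304 to 327 CPM over the other ECTO libraries. Each ECTO library was above each ESC library in CPM. On the TMM scale the rise was small, 0.15 (edgeR adjusted p = 3.51e-05) in hHAR123, 0.12 (0.000142) in cHAR123 and 0.18 (7.44e-08) in mHAR123, and 0.06 (0.0329) in HAR123-KO did not pass. By library totals the values were 0.44, 0.32, 0.35 and 0.26, and HAR123-KO passed, so the size of the TET1 change rests on the scaling.

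TET3, the oxidase of the zygote and of neural cells, was 98.1 to 101 CPM in hHAR123 ESC and 86.8 to 88.9 CPM in hHAR123 ECTO, with 93.9 to 99.5 CPM and 84.1 to 92.3 CPM over the other genotypes. The stages did not overlap in CPM, though the gap was narrow. The log2 fold change was −0.47 (edgeR adjusted p = 2.2e-14) in hHAR123, −0.34 in HAR123-KO, −0.28 in cHAR123 and −0.35 in mHAR123. By library totals these were −0.17, −0.14, −0.08 and −0.19, and the cHAR123 value (edgeR adjusted p = 0.042) no longer passed.

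**Figure D3:**
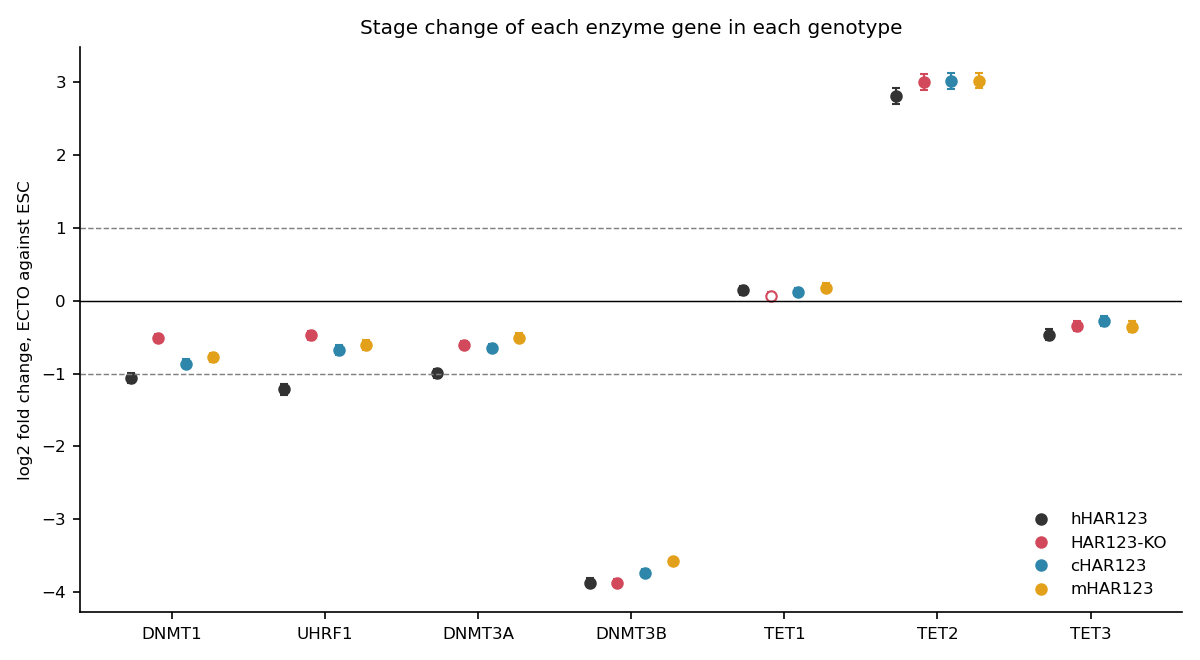
Log2 fold change of ECTO against ESC (edgeR, TMM scaling) with 95% confidence intervals for the 7 tested members in the 4 genotypes, filled where adjusted p is under 0.01 and with dashed lines at a size of 1. DNMT3B lies between −3.87 and −3.58 and TET2 between 2.81 and 3.03 in all genotypes, while DNMT1, DNMT3A and UHRF1 fell furthest in hHAR123.

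The next comparison asked which members differed between edited and unedited hESCs before differentiation. The differences were small, and DNMT3A and UHRF1 were the members that were lower past the p threshold in all 3 edited genotypes. DNMT1, TET2 and TET3 were also lower in all 3, without passing it. Of the 7 tested, 2 passed the p threshold in HAR123-KO against hHAR123 (12.4% of all genes), 3 in cHAR123 (16.3%) and 3 in mHAR123 (19.2%), all of them lower. None passed the size rule (1.18%, 0.850% and 1.23% of all genes), where edgeR gave 2, 3 and 3 members at any size and DESeq2 gave 0 past the size rule too. The 3 comparisons share the hHAR123 libraries.

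DNMT3A was 276 to 286 CPM in the hHAR123 ESC libraries and 233 to 252 CPM in the 9 edited ones, with no overlap. Its log2 difference was −0.21 in HAR123-KO (SE 0.03, edgeR adjusted p = 2.63e-08), −0.21 in cHAR123 (3.04e-07) and −0.29 in mHAR123 (2.39e-12). UHRF1 was 149 to 154 CPM in hHAR123 and 135 to 143 CPM in the edited libraries, also without overlap. It differed by −0.12 in HAR123-KO (edgeR adjusted p = 0.00215), −0.16 in cHAR123 (0.00013) and −0.17 in mHAR123 (1.03e-05). The HAR123-KO value lost its call by library totals (−0.10, edgeR adjusted p = 0.0119) and without hHAR123 replicate 2 (0.01) or 3 (0.0137) or HAR123-KO replicate 1 (0.0169) or 2 (0.0174).

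DNMT3B, at 2500 to 2522 CPM in hHAR123, was 2623 to 2669 CPM in HAR123-KO, 2402 to 2424 CPM in cHAR123 and 2463 to 2489 CPM in mHAR123, so that the 4 groups did not overlap. The log2 differences from hHAR123 were 0.06 in HAR123-KO (edgeR adjusted p = 0.0329, not past the threshold, but past it by library totals, 0.000952, and by DESeq2, 0.00697), −0.09 in cHAR123 (0.00146) and −0.06 in mHAR123 (0.00772). The cHAR123 value lost its call by library totals (−0.06, edgeR adjusted p = 0.0271), with a replicate block (0.0188) and without hHAR123 replicate 2 (0.0149). The mHAR123 value lost it by library totals (−0.02, edgeR adjusted p = 0.387) and without any 1 hHAR123 replicate (0.018, 0.0507 and 0.0134) or mHAR123 replicate 2 (0.0655) or 3 (0.03). DNMT1 and the TET genes passed in none of the 3 comparisons, with log2 differences from −0.07 to −0.06 for DNMT1 from −0.06 to 0.05 for TET1, from −0.18 to −0.09 for TET2 and from −0.08 to −0.05 for TET3.

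In ECTO the maintenance genes stood out: DNMT1 and UHRF1 were highest in HAR123-KO, and UHRF1 was higher in all 3 edited genotypes than in hHAR123. Of the 7 tested members, 3 passed in HAR123-KO (44.1% of all genes), all higher. In the libraries labelled cHAR123 2 passed, 1 in each direction (9.89%), and in those labelled mHAR123 4 passed, all higher (14.0%). None passed the size rule (9.45%, 0.978% and 1.03% of all genes), by edgeR or by DESeq2. These 3 comparisons again share the hHAR123 libraries, and in HAR123-KO the members' share near the background of 44.1% is not a result about the members. Exchanging the ECTO names swaps the cHAR123 and mHAR123 values below.

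UHRF1 was 77.2 to 81.7 CPM in hHAR123 ECTO, 97.7 to 100.2 CPM in cHAR123, 99.8 to 103 CPM in mHAR123 and 112 to 118 CPM in HAR123-KO. The libraries of hHAR123 and HAR123-KO overlapped with no other group, and those of cHAR123 and mHAR123 overlapped with each other. The log2 difference from hHAR123 was 0.60 in HAR123-KO (SE 0.04, edgeR adjusted p = 4.72e-19), 1.52-fold, 0.33 in cHAR123 (8e-09), 1.26-fold, and 0.39 in mHAR123 (1.07e-09), 1.31-fold.

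DNMT1 was 178 to 193 CPM in hHAR123 ECTO, 196 to 201 CPM in cHAR123, 206 to 209 CPM in mHAR123 and 241 to 257 CPM in HAR123-KO. The 4 groups did not overlap. The log2 difference was 0.46 in HAR123-KO (SE 0.03, edgeR adjusted p = 7.91e-17), 1.38-fold, and 0.19 in mHAR123 (0.000171), and 0.10 in cHAR123 (0.0274) did not pass.

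DNMT3A, lower in the edited cells before differentiation, was on the other side in ECTO: 171 to 175 CPM in hHAR123 and 180.1 to 191 CPM in the 9 edited libraries, without overlap. The log2 difference was 0.16 in HAR123-KO (edgeR adjusted p = 4.39e-05), 0.16 in mHAR123 (0.000741) and 0.10 in cHAR123 (0.0183, not past the threshold). The mHAR123 call was lost by library totals (edgeR adjusted p = 0.012) and without mHAR123 replicate 2 (0.0156).

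DNMT3B was higher in the libraries labelled mHAR123, at 227 to 238 CPM against 208 to 212 CPM in hHAR123, with a log2 difference of 0.19 (edgeR adjusted p = 6.82e-05). It was level with hHAR123 in HAR123-KO (0.04, edgeR adjusted p = 0.367, 95% interval −0.03 to 0.10) and in cHAR123 (0.00, 0.983, −0.06 to 0.06). If the ECTO names are crossed, the higher DNMT3B belongs to the chimpanzee ortholog and not to the mouse one.

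For the oxidases no difference passed in HAR123-KO or mHAR123 with TMM scaling. TET1 was 333 to 353 CPM in hHAR123 ECTO and 304 to 327 CPM in the 9 edited libraries, lower in all 9, with log2 differences of −0.06 in HAR123-KO (edgeR adjusted p = 0.08), −0.10 in cHAR123 (0.00983) and −0.07 in mHAR123 (0.112). By library totals TET1 passed in HAR123-KO (−0.11, edgeR adjusted p = 0.0012) and in mHAR123 (−0.11, 0.00945), and in 1 fit of all 24 libraries it passed in HAR123-KO (−0.08, 0.00888), so these calls rest on the scaling and the fit. The cHAR123 call held in 4 of its 12 alternatives, with a highest adjusted p of 0.134. The 95% intervals of TET2 were −0.10 to 0.07 in HAR123-KO, −0.02 to 0.13 in cHAR123 and 0.00 to 0.17 in mHAR123, and those of TET3 lay between −0.08 and 0.13.

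**Figure D4:**
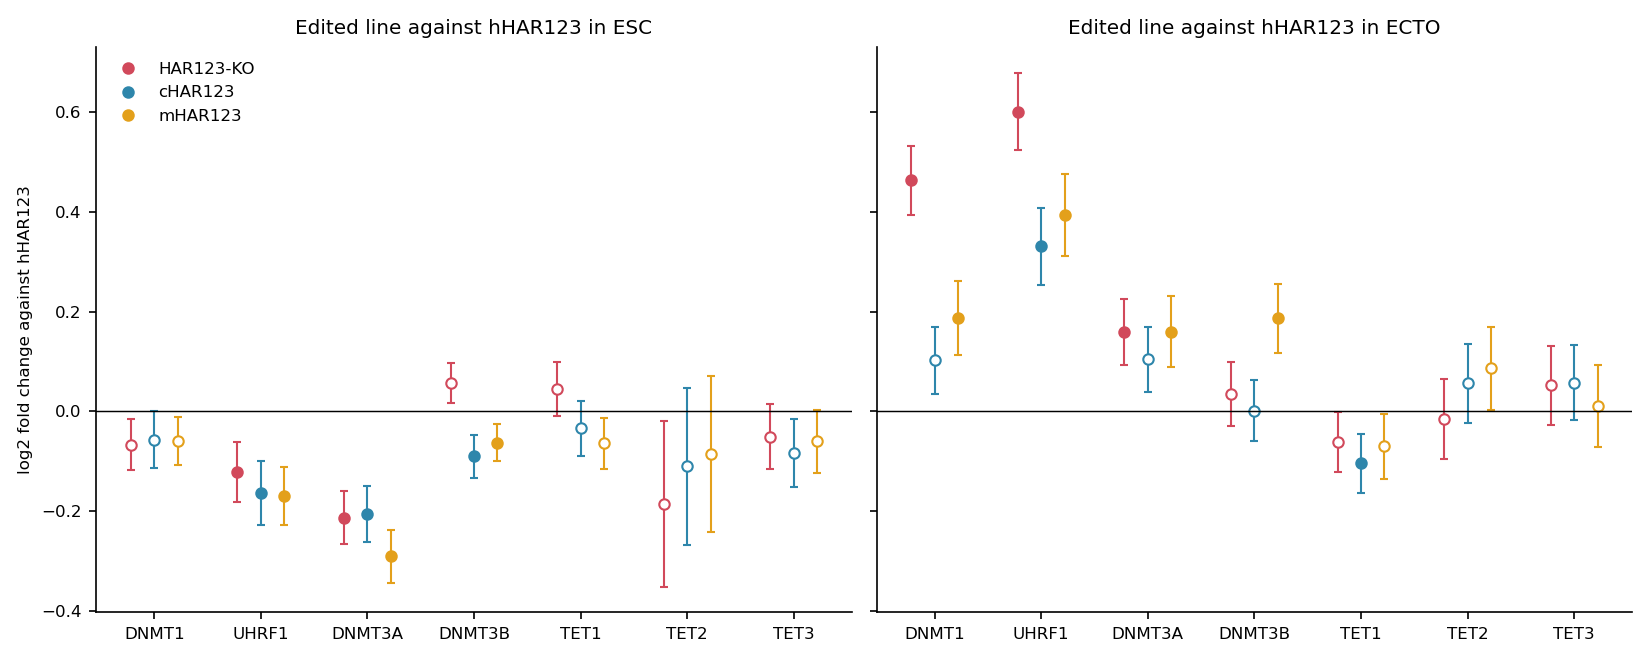
Log2 difference of each edited genotype from hHAR123 in ESC and in ECTO (edgeR, TMM scaling) with 95% confidence intervals for the 7 tested members, filled where adjusted p is under 0.01. DNMT3A and UHRF1 lie below 0 in ESC in all 3 edited genotypes and above 0 in ECTO, where UHRF1 and DNMT1 in HAR123-KO reach 0.60 and 0.46.

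Whether the stage change itself differed from that of hHAR123 was tested with an interaction of genotype and stage. DNMT1, DNMT3A and UHRF1 fell less in all 3 edited genotypes, so 3 of 7 members passed in HAR123-KO (32.5% of all genes), 3 in cHAR123 (8.71%) and 4 in mHAR123 (12.8%), all towards a smaller fall. In HAR123-KO the members' share lies near that of all genes and is not a result about the members. The fourth in mHAR123 was DNMT3B. With the ECTO names of cHAR123 and mHAR123 exchanged, it passed in cHAR123 (0.30, edgeR adjusted p = 1.48e-08) and not in mHAR123 (0.08, 0.0831), while DNMT1, DNMT3A and UHRF1 passed in both under either naming. The TET genes did not pass in any genotype with TMM scaling, with 95% intervals of −0.01 to 0.34 for TET2 and −0.19 to −0.03 for TET1 in HAR123-KO (edgeR adjusted p = 0.127 and 0.0219). By library totals TET1 did pass in HAR123-KO (−0.18, edgeR adjusted p = 0.000328), as it did without HAR123-KO ESC replicate 1 (−0.13, 0.00988). In cHAR123, TET3 (0.15, edgeR adjusted p = 0.0326) and DNMT3B (0.10, 0.0304) passed by DESeq2 (0.19, 0.00219, and 0.14, 8.92e-06), with its size factors and in 1 fit of all 24 libraries. The hHAR123 libraries enter all 3 tests.

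The remaining pairs set the edited genotypes against each other. In ESC 1 member passed in cHAR123 against HAR123-KO (8.09% of all genes) and 1 in mHAR123 against HAR123-KO (6.91%): DNMT3B, at −0.14 (edgeR adjusted p = 3.49e-05) and −0.11 (0.000159). TET1 in mHAR123 against HAR123-KO (−0.10, edgeR adjusted p = 0.0121) passed by DESeq2 (0.00535), without the filter (0.00633) and in 1 fit of all 24 libraries (0.00536). None passed in mHAR123 against cHAR123 (0.783%) by edgeR or DESeq2, where 1 had an unadjusted edgeR p under 0.05, DNMT3A at −0.08. In ECTO 2 members passed in cHAR123 against HAR123-KO (39.0%), DNMT1 at −0.34 (1.72e-18) and UHRF1 at −0.24 (3.73e-10), both lower in cHAR123, and TET2 (0.10, edgeR adjusted p = 0.0151) passed by library totals (0.00647) and without HAR123-KO replicate 2 (0.0054) or cHAR123 replicate 3 (0.00926). In mHAR123 against HAR123-KO 4 passed (36.5%): DNMT1 at −0.25 (edgeR adjusted p = 3.75e-10) and UHRF1 at −0.18 (1.19e-05), and in the other direction DNMT3B at 0.18 (1.3e-06) and TET2 at 0.13 (0.00409), the last of which held in 6 of 12 alternatives. DNMT3B was the 1 member that passed in mHAR123 against cHAR123 (4.20%), at 0.18 (3.64e-06). Exchanging the ECTO names reverses the sign of this difference and swaps the ECTO values of cHAR123 and mHAR123 against HAR123-KO.

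Partners of these enzymes were followed in lists, given by counts and medians. For comparison, 40.3% of all genes tested rose and 39.7% fell between stages in hHAR123 (median 0.05), and 24.2% were higher and 19.9% lower in HAR123-KO than in hHAR123 in ECTO (median 0.00). Of the 9 maintenance partners, which remodel chromatin or act at the replication fork, 8 fell and 1 rose in hHAR123 between stages (median log2 fold change −0.95). CDCA7, a partner of the remodeller HELLS, fell from 58.3 ± 1.71 to 15.9 ± 1.07 CPM and UHRF2, the paralog of UHRF1, rose from 44.1 ± 1.15 to 98.9 ± 5.36 CPM. In HAR123-KO against hHAR123 in ECTO 4 were higher and 3 lower (median 0.05). CDCA7 was at 39.2 ± 0.894 CPM in HAR123-KO (1.36, edgeR adjusted p = 4.79e-25) and HELLS was lower, at 175 ± 5.46 against 226 ± 13.1 CPM.

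Of 8 modulators of TET enzymes and UHRF1, 3 rose and 5 fell between stages in hHAR123 (median −1.37). CXXC4, which binds TET2, rose from 4.07 ± 0.552 to 57.5 ± 3.95 CPM, and NANOG, a pluripotency factor that binds TET enzymes, fell from 157 ± 1.68 to 1.26 ± 0.199 CPM. Of the 7 tested in HAR123-KO against hHAR123 in ECTO 1 was higher and 2 lower (median −0.16). CXXC5, a paralog of CXXC4, was 24.9 ± 1.83 CPM in hHAR123 and 64.7 ± 1.31 CPM in HAR123-KO, and SALL4 657 ± 8.80 and 316 ± 8.53 CPM. Of 14 enzymes that supply the methyl donor or the TET cofactor, 2 rose and 10 fell between stages (median −0.83), with MAT1A, a methionine adenosyltransferase, down from 3.56 ± 0.242 to 0.427 ± 0.200 CPM. In HAR123-KO against hHAR123 in ECTO 9 were higher and 1 lower (median 0.28), beside 24.2% and 19.9% of all genes (median 0.00). The highest rise was that of IDH1, isocitrate dehydrogenase, from 68.3 ± 0.353 to 96.5 ± 1.23 CPM.

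Genes of DNA replication were followed in the same way. Of 14 S-phase genes (PCNA is also in the list of maintenance partners), 12 fell and none rose between stages in hHAR123 by edgeR (median −1.39), with CDT1, a licensing factor, down from 119 ± 4.89 to 40.9 ± 1.19 CPM. In ECTO against hHAR123, 10 were higher in HAR123-KO (median 0.25), 4 in cHAR123 (0.12) and 6 in mHAR123 (0.10), and 0 were lower. Of all genes tested 24.2%, 5.90% and 8.80% were higher and 19.9%, 3.99% and 5.21% lower in these comparisons (medians 0.00, −0.01 and −0.01). In ESC 5, 10 and 10 of the 14 were lower (medians −0.07, −0.16 and −0.13) and 1, 0 and 0 higher, beside 5.29%, 8.60% and 10.2% of all genes lower and 7.06%, 7.72% and 9.02% higher. The summed level of the 14 was 2689 to 2692 CPM in hHAR123 ESC and 2509 to 2605 CPM in the edited ESC libraries. In ECTO it was 1204 to 1250 CPM in hHAR123, 1307 to 1318 CPM in cHAR123, 1297 to 1318 CPM in mHAR123 and 1430 to 1463 CPM in HAR123-KO, the same order of hHAR123 lowest and HAR123-KO highest as for UHRF1. The part of cell division in the DNMT1 and UHRF1 differences was not tested.

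Among the ECTO groups, neural crest markers were also higher in the edited genotypes. Between stages in hHAR123, 7 of the 8 markers rose and 1 fell (median 2.76). All 8 were higher in ECTO than in hHAR123 in HAR123-KO (median 4.91), cHAR123 (1.55) and mHAR123 (2.23). Their sum was 205 to 214 CPM in hHAR123, 369 to 378 CPM in cHAR123, 406 to 408 CPM in mHAR123 and 1733 to 1754 CPM in HAR123-KO. DNMT1 had the same order of the groups in ECTO, and for UHRF1 hHAR123 was likewise lowest and HAR123-KO highest. FOXD3, a neural crest regulator, was 2.5 ± 0.20 CPM in hHAR123 and 188 ± 0.340 CPM in HAR123-KO. All 8 neuroectoderm markers were lower in HAR123-KO than in hHAR123 (median −1.27), with HES5, a Notch target, at 20.5 ± 1.31 against 170 ± 5.47 CPM. In cHAR123 and mHAR123 ECTO the summed neuroectoderm markers were 1720 to 1757 and 1644 to 1662 CPM, against 1716 to 1732 CPM in hHAR123. The part of the mix of cell types in the differences of DNMT1, UHRF1 and DNMT3A was not tested.

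Patterns over the 8 groups were also compared with those of 17479 other genes, by the root mean square difference of centred log2 levels. Those nearest to DNMT3B were PHC1, a Polycomb subunit (0.07), CGNL1 and PHC1P1 (both 0.08), and 70 genes lay within 0.25. PHC1P1 is a pseudogene of PHC1, so the reads of these 2 may be shared. Among the nearest to TET2 were SPACA9 (0.07) and RTCA-AS1 (0.09), with 133 genes within 0.25. The patterns of the other members were common: 3006 genes lay that near to UHRF1, 3266 to DNMT1, 3693 to DNMT3A, 4898 to TET3 and 5084 to TET1. TMEM250, H2AX, a histone variant of DNA repair, and SPIN4 were nearest to UHRF1 (all 0.05), CARM1, MAP7D3 and TMEM203 to DNMT1 (0.02 to 0.03), and THRAP3, ZCCHC3 and PTPA to DNMT3A (0.03 to 0.04). For TET1 they were INTS8, CERT1 and M6PR, and for TET3 SART3, ADIPOR2 and SMARCC1 (all 0.02 to 0.03). This likeness is a description over 8 group means.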

How the data were processed

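RNA was sequenced from 24 samples of H9 cells as ribosomal-RNA-depleted, directional, paired-end libraries. The authors aligned reads with STAR 2.5.2b to GRCh38 and counted them per Ensembl 106 gene with featureCounts, and they deposited 1 table of raw counts. How strand was set in the counting is not given in the sources used here, so antisense partners cannot be separated. Of 61552 genes, 1 (ANK2) whose entry was broken over 3 lines was left out. Groups follow the sample labels. CPM were computed from library totals, and RPKM from these and the table's exon lengths.

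Genes were tested with edgeR 4.0.16 in R 4.3.3 (filterByExpr, TMM, glmQLFit and glmQLFTest, Benjamini-Hochberg over all genes tested), in pairwise fits of 6 libraries or, for interactions, 12. Calls used adjusted p under 0.01, alone or with a log2 size over 1. Alternatives were DESeq2 1.42.0 and its size factors, library totals, no filter, a replicate block, each library left out, 1 fit of all 24 libraries, and a threshold of 0.05. The named genes of each list are those with the largest rise and fall in the hHAR123 stage change and in HAR123-KO against hHAR123 in ECTO, past adjusted p and averaging 1 CPM or more. The members and lists were chosen with earlier results of these data known. For each member the 3 genes of most similar pattern were also taken, of which 1 is not reported here. Scripts were tested on simulated counts. Replicate libraries differed by 1.40 to 4.97 times sampling noise (chi-square per degree of freedom), so none was counted as a duplicate. Depth sets the precision: 3 counts correspond to 0.0852 CPM in the deepest and 0.143 CPM in the shallowest library, covering counting error only.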

Additional observations from a re-analysis of the deposited data

Results flagged for a closer look

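The stage change from ESC to ECTO differed from that of hHAR123 for 10 combinations of member and genotype, by the interaction of genotype and stage (edgeR, 12 libraries per fit, p-values adjusted by the method of Benjamini and Hochberg). They comprised 3 of the 7 tested members in HAR123-KO (32.5% of all genes passed), 3 in cHAR123 (8.71%) and 4 in mHAR123 (12.8%). The HAR123-KO count lies near the share of all genes and is not a result about the members. Each value is the log2 fold change of the edited genotype minus that of hHAR123, and each is above 0, that is, a smaller fall.

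For UHRF1 it was 0.72 in HAR123-KO (adjusted p = 8.46e-18), 0.50 in cHAR123 (1.36e-10) and 0.58 in mHAR123 (6.85e-13). For DNMT1 it was 0.52 in HAR123-KO (1.18e-14), 0.17 in cHAR123 (0.00811) and 0.27 in mHAR123 (5.78e-06). The cHAR123 value of DNMT1 lost its call by library totals (0.11, adjusted p = 0.0742) and without hHAR123 ESC replicate 1, cHAR123 ESC replicate 1, hHAR123 ECTO replicate 1 or any 1 cHAR123 ECTO library (adjusted p from 0.011 to 0.0309).

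For DNMT3A, lower than hHAR123 in ESC and higher in ECTO, it was 0.37 in HAR123-KO (1.58e-10), 0.32 in cHAR123 (2.48e-07) and 0.47 in mHAR123 (9.94e-12). For DNMT3B it was 0.27 in mHAR123 (3.53e-08). With the ECTO names of cHAR123 and mHAR123 exchanged, the cHAR123 values were 0.27 for DNMT1, 0.39 for DNMT3A and 0.58 for UHRF1, and the mHAR123 values 0.18 for DNMT1, 0.41 for DNMT3A and 0.51 for UHRF1, all past the threshold, while for DNMT3B the call passed from mHAR123 to cHAR123. The hHAR123 libraries are shared by all of these values.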

How the results depend on the processing

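Over 837 refits of the 63 called fold changes under the alternatives, 797 kept their direction and call, 40 lost the call and 0 reversed. Of 401 counts of members past the threshold, 327 equalled the reported count, 51 differed by 1 within 1.5 times of it, and 23 lay beyond 1.5 times, as follows. By library totals, members past the size rule in the hHAR123 stage change numbered 2 in place of 4. In mHAR123 against hHAR123 in ESC the replicate block gave 5 in place of 3 (DNMT1 and TET1 added). In cHAR123 against hHAR123 in ECTO, DESeq2, its size factors, no filter and the replicate block each gave 1 in place of 2, and a threshold of 0.05 gave 4. In mHAR123 against HAR123-KO in ESC, DESeq2, no filter, 1 fit of all 24 libraries and a threshold of 0.05 gave 2 in place of 1. For the cHAR123 interaction, DESeq2, its size factors, 1 fit of all 24 libraries and a threshold of 0.05 gave 5 in place of 3. Leaving out 1 library gave 1 to 2 members in HAR123-KO against hHAR123 in ESC, 1 to 3 in cHAR123 against hHAR123 in ECTO, 4 to 5 past the size rule in the hHAR123 stage change (DNMT3A at −0.999 is the one at the threshold) and 2 to 3 for the cHAR123 interaction. The cause of these moves was not tested. By DESeq2, the TET1 stage change in cHAR123 did not pass (0.07, adjusted p = 0.035).

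Replicate numbers name libraries only: in none of 16 comparisons did every same-numbered pair correlate above 0.1 (r from −0.05 to 0.056), and beside the counts above the block ended the call of DNMT3B in cHAR123 against hHAR123 in ESC (adjusted p = 0.0188). Exchanging the ECTO names of cHAR123 and mHAR123 was chosen after seeing the data. Depth limits DNMT3L, with 19 counts over the 12 ESC and 4 over the 12 ECTO libraries.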

Other observations

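Of 14 genes of base excision and deamination, which finish the removal of oxidised methylcytosine, 12 were tested, and in hHAR123 5 rose and 5 fell between stages (edgeR, median log2 fold change −0.05), beside 40.3% and 39.7% of all genes. UNG, a uracil glycosylase, went from 134 ± 1.64 to 46.9 ± 0.774 CPM and GADD45B, a stress-response gene, from 3.35 ± 0.659 to 9.73 ± 0.478 CPM. In HAR123-KO against hHAR123 in ECTO 5 were higher and 2 lower (median 0.09), beside 24.2% and 19.9% of all genes, with PARP1, a DNA damage sensor, at 390 ± 7.26 against 271 ± 3.39 CPM and GADD45B at 4.72 ± 0.830 CPM. Of a list of 9 methyl-CpG readers and silencing cofactors, 4 rose and 3 fell between stages (median 0.08), near the same shares of all genes, with TRIM28, a corepressor recruited by KRAB zinc finger proteins and not itself a reader, down from 1196 ± 15.3 to 431 ± 22.5 CPM and ZBTB4 up from 32.1 ± 1.64 to 70.5 ± 1.44 CPM. In HAR123-KO in ECTO 3 were higher and 0 lower, TRIM28 among them at 540 ± 13.8 CPM.

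Of 8 histone enzymes that guide de novo methylation, 4 rose and 4 fell between stages in hHAR123 (median −0.06, again beside 40.3% and 39.7% of all genes), NSD2 from 268 ± 1.64 to 525 ± 8.39 CPM and EHMT1 from 216 ± 5.47 to 167 ± 3.80 CPM. In HAR123-KO against hHAR123 in ECTO 2 were higher and 3 lower (median −0.05), among them KDM1A at 383 ± 1.19 against 323 ± 7.37 CPM and KDM2B at 179 ± 1.55 against 269 ± 8.40 CPM. Of 11 germline genes known to be silenced by promoter methylation, 6 were tested between stages in hHAR123, where 2 rose and 2 fell (median −0.23), with DAZL at 2.19 ± 0.128 CPM in ESC and 0.604 ± 0.213 CPM in ECTO. Of the 5 tested in HAR123-KO against hHAR123 in ECTO, 0 were higher and 1 lower (median −0.34).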
